A study of Mus musculus with 12 samples.

Results

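Cyclin-dependent kinase inhibitors are the proteins that hold back the kinases driving the cell division cycle. The 8 genes named for this role in the mouse (Cdkn1a, Cdkn1b, Cdkn1c, Cdkn2a, Cdkn2b, Cdkn2c, Cdkn2d and Cdkn3) were taken by symbol from a table of 55487 genes, and all 8 were found there. Of these, 6 passed a filter of at least 1 CPM (counts per 1e+06 reads assigned to genes) in at least 3 of 12 libraries, as did 13280 genes in all. Cdkn2a and Cdkn2b did not pass, and their values are given as levels without a test.

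The RNA came from 1 primary line of fibroblasts, derived from mammary fat pad tissue of a healthy B6 mouse, and was sequenced as 4 groups of 3 libraries. Doxorubicin cells received 100 nM of this DNA-damaging drug for 24 h and were lysed on day 7, beside a water vehicle lysed the same day. Peroxide cells received 750 uM hydrogen peroxide for 2 h with 48 h of recovery, 3 times in all, and were lysed on day 6, beside their own water vehicle. Both vehicle cultures were split routinely and the labels record no splitting of treated cells, so treatment and passaging cannot be told apart. The labels do not say that replicates were separate cultures of that line, and the spread behind each p-value may therefore be technical.

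In textbook accounts the inhibitors form families with different targets. The CIP/KIP proteins, encoded by Cdkn1a (p21), Cdkn1b (p27) and Cdkn1c (p57), bind cyclin and kinase complexes broadly. The INK4 proteins, encoded by Cdkn2a (p16, with ARF from another reading frame), Cdkn2b (p15), Cdkn2c (p18) and Cdkn2d (p19), bind the kinases CDK4 and CDK6 themselves. Cdkn3 carries the same kind of name but encodes KAP, a phosphatase that acts on CDK2, and it is transcribed mainly in dividing cells. High Cdkn1a and Cdkn2a are widely used marks of senescent fibroblasts, Cdkn1a as a target of p53.

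Promoter windows were available for 7 of the 8 genes (all but Cdkn1c) in the RefSeq table for GRCm38.p6, each reaching from 250 bases before to 50 bases after an annotated start. Windows are shown for Cdkn1a and Cdkn3, which were called in opposite directions after both treatments, and for Cdkn2c, whose own changes after the treatments had opposite signs. Both starts of Cdkn1a are given, chr17:29090729-29091028 and chr17:29093519-29093818 on the plus strand. Cdkn3 is at chr14:46760291-46760590 on the plus strand and the first start of Cdkn2c at chr4:109666707-109667006 on the minus strand. Capitals mark the p53 response element and GGGCGG in Cdkn1a, CCAAT and TTTGAA (here read as its complement) in Cdkn3, and GGGCGG in Cdkn2c.
Cdkn1a start 1: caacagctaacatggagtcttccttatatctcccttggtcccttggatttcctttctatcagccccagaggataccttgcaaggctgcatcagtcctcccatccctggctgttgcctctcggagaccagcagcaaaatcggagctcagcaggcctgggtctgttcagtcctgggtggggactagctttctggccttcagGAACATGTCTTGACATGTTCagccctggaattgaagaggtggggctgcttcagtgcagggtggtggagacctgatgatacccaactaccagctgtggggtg
Cdkn1a start 2: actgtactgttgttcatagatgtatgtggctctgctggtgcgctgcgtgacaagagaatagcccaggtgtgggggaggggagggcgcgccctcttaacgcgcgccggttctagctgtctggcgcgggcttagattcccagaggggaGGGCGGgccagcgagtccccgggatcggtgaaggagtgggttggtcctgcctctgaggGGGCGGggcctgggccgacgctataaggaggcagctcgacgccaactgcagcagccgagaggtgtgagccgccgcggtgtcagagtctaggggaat
Cdkn3: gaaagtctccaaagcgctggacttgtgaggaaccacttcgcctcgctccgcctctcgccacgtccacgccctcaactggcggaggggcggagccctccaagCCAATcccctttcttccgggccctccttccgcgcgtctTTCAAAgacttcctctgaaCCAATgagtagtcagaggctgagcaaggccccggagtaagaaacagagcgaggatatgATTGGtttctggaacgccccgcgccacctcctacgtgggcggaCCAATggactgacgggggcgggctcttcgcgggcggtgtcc
Cdkn2c start 1: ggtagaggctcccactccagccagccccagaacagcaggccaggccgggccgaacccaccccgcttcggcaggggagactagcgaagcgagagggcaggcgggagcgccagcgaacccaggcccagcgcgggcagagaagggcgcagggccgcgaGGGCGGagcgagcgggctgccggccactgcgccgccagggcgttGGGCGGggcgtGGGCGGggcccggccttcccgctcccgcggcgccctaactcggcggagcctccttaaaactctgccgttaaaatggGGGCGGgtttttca

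The first Cdkn1a window held a p53 response element beginning 51 bases before the start, defined as adjacent p53 decamers with at most 1 letter off outside their cores. Such an element was found in 18 of 32851 windows of this length (0.0548%). The Cdkn3 window held 4 copies of CCAAT, the sequence bound by NF-Y, and 1 of TTTGAA, the core of the CHR element of cell cycle promoters. Over all windows 37.4% held CCAAT and 17.9% held TTTGAA. The Cdkn2c window held 4 copies of GGGCGG, the GC box bound by Sp1, the Cdkn3 window also held 4 (left in lower case), and the second Cdkn1a window held 2, while 35.7% of all windows held at least 1. The E2F sites TTTGGCGC and TTTCCCGC, present in 0.514% and 1.07% of windows, were not among the letters of the 4 windows shown, nor was TATAAA (13.6%). All motifs were searched on both strands, and a match describes the letters only.

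Across both treatments Cdkn1a was higher and Cdkn3 lower, and no other inhibitor passed the test in the same direction after both. After doxorubicin 1 of the 6 tested inhibitors rose (22.1% of all tested genes rose) and 3 fell (27.8% of all tested genes fell). After peroxide 2 rose (27.3% of all tested genes) and 2 fell (23.4%). Of all tested genes, 49.9% were called after doxorubicin and 50.7% after peroxide, so a count of 4 of 6 says little about the inhibitors as a set. The libraries of treated and vehicle groups did not overlap for 4 of the 6 inhibitors in either experiment, beside 59.7% of all tested genes after doxorubicin (26.1% higher, 33.6% lower) and 59.9% after peroxide (30.7% higher, 29.3% lower). The median log2 change of the 6 genes was -0.48 after doxorubicin and -0.19 after peroxide, beside -0.03 and -0.013 over all tested genes. In bulk RNA, fewer cells expressing a gene and less RNA per cell cannot be told apart.

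**Figure D1:**
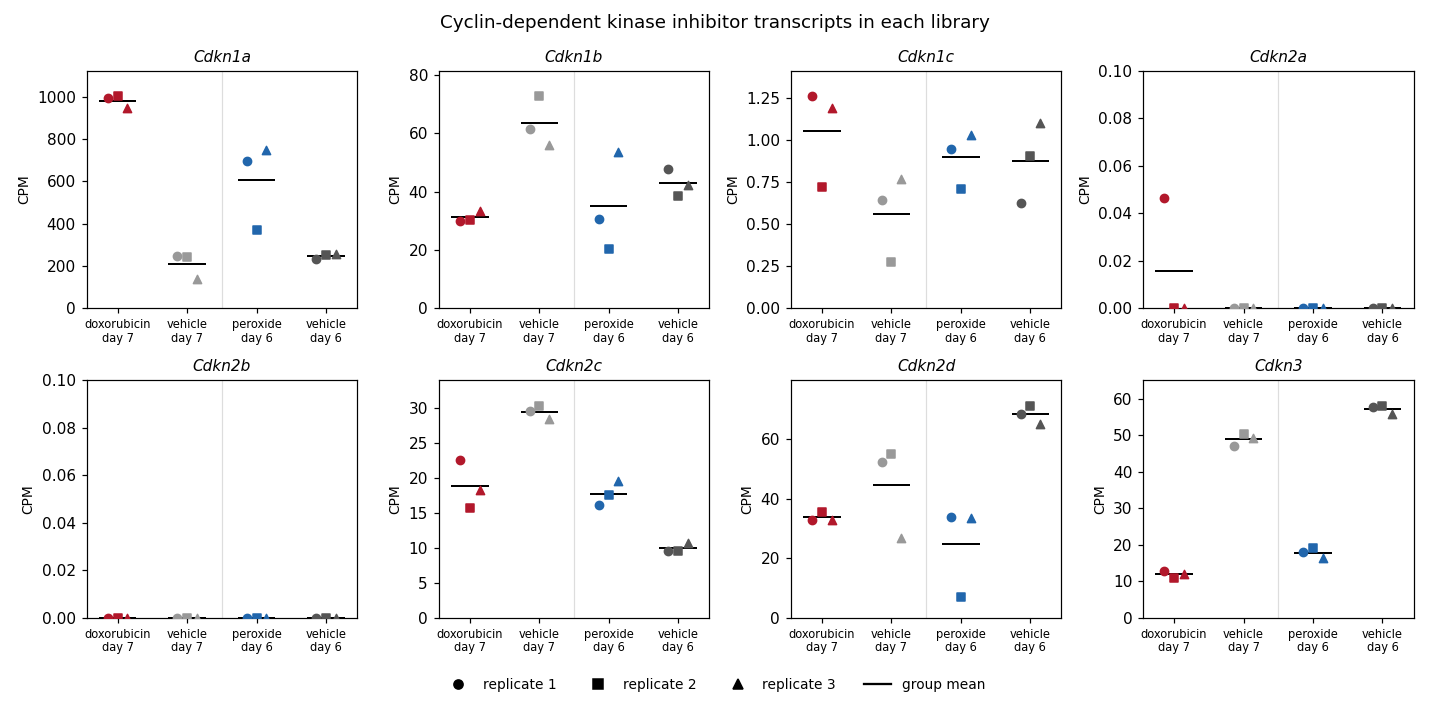
Level of each of the 8 inhibitor genes in CPM in every library, with doxorubicin and peroxide groups each left of their vehicle; symbols are libraries (1 shape per replicate number), horizontal lines are group means, and each panel has its own axis from 0. Cdkn1a was higher in all 3 libraries of either treatment than in its vehicle and Cdkn3 was lower, whereas Cdkn2a and Cdkn2b lay at or near 0.

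Cdkn1a (17:29090976-29100727, plus strand, mm10) encodes p21, the inhibitor that p53 switches on after DNA damage. It had 993, 1003 and 947 CPM in doxorubicin libraries, against 245, 240 and 140 CPM in their vehicle libraries. In the peroxide libraries it had 699, 371 and 749 CPM, against 233, 251 and 254 CPM in their vehicle libraries. The treated and vehicle groups did not overlap in either experiment, but the second peroxide library lay well under the other two of its group. On the log2(CPM + 1) scale the difference was 2.27 ± 0.26 (SE) after doxorubicin, or 4.84-fold, with a limma adjusted p of 2.65e-05. After peroxide it was 1.23 ± 0.26, with an adjusted p of 0.00198. The doxorubicin effect exceeded the peroxide effect by 1.04 (95% interval 0.25 to 1.84, adjusted p = 0.0461), close to the threshold of 0.05. Without the second peroxide library that difference was 0.72 (adjusted p = 0.0529), and without the third day 7 vehicle library it was 0.78 (adjusted p = 0.0954). Without both of these and the first doxorubicin library it was 0.45 (adjusted p = 0.00351). These libraries were picked after their values were seen, so that adjusted p may be too small. Cdkn1a shares 9.8% of its 31-base windows (347 of 3547) with 4243 other annotated genes, 244 of these windows with the antisense gene model 1700023B13Rik (AC167363.2 in GENCODE M21), which averaged 0.587 CPM, and the sources used here do not say whether strand was used in counting.

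Cdkn1b (6:134920401-134925513, plus strand) encodes p27, an inhibitor that accumulates in resting cells. It had 30.0, 30.2 and 33.5 CPM in doxorubicin libraries, against 61.6, 72.8 and 56.0 CPM in their vehicle libraries, with no overlap. It fell by 0.99 ± 0.26 on the log2 scale (limma adjusted p = 0.0084), in the direction opposite to Cdkn1a. In the peroxide libraries it had 30.7, 20.3 and 53.8 CPM, against 47.9, 38.6 and 42.4 CPM in their vehicle libraries. The peroxide libraries spanned the whole vehicle range, and the difference of -0.40 ± 0.26 did not pass the test (adjusted p = 0.229). That value turned on single libraries, at -0.07 (adjusted p = 0.789) without the second peroxide library and -0.75 (adjusted p = 0.00453) without the last. The effects of the treatments differed by -0.60 (adjusted p = 0.225), which did not pass. That difference was -0.92 (adjusted p = 0.0244) without the second peroxide library and -0.24 (adjusted p = 0.436) without the last.

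Cdkn1c (7:143458339-143461050, minus strand) encodes p57, an imprinted inhibitor expressed mainly from the maternal allele. Its levels were low, at 1.26, 0.718 and 1.19 CPM in doxorubicin libraries, against 0.641, 0.274 and 0.769 CPM in their vehicle libraries. The peroxide libraries had 0.947, 0.711 and 1.03 CPM, against 0.625, 0.905 and 1.10 CPM in their vehicle libraries. Both pairs of groups overlapped, with 6 to 42 estimated reads per library. The log2 differences of 0.40 (95% interval 0.04 to 0.76, adjusted p = 0.0613) after doxorubicin and 0.02 (interval -0.34 to 0.38, adjusted p = 0.935) after peroxide did not pass the test. The doxorubicin value was 0.86 with a pseudocount of 0.1 and 0.92 with limma voom, and it passed under 4 of 18 alternatives. The peroxide value changed sign, to between -0.081 and -0.003, when certain single libraries were left out. Cdkn1c shares 27.2% of its windows with an antisense gene model, Gm44732, that was at 0 in all libraries.

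Around Cdkn1c on distal chromosome 7 lies a cluster of imprinted genes, of which 10 were listed and 7 tested. Of these, 3 rose and 1 fell after doxorubicin (22.1% of all tested genes rose and 27.8% fell). After peroxide 3 rose and 2 fell (27.3% of all tested genes rose and 23.4% fell). Slc22a18, an organic cation transporter, averaged 19.5 ± 1.56 CPM in doxorubicin cells and 3.16 ± 0.391 CPM in their vehicle (SD, n = 3 each), a log2 change of 2.30 (limma adjusted p = 7.82e-08). It averaged 18.0 ± 1.89 CPM in peroxide cells and 1.29 ± 0.223 CPM in their vehicle, a log2 change of 3.05 (limma adjusted p = 1.36e-08). H19, a noncoding RNA of the neighbouring imprinted domain, averaged 13.2 ± 2.58 CPM in doxorubicin cells and 0.0608 CPM in their vehicle, and 6.88 ± 1.19 CPM in peroxide cells and 0.0963 CPM in their vehicle. Igf2, the growth factor gene beside H19, averaged 1.51 ± 0.544 CPM in doxorubicin cells and 0.0652 CPM in their vehicle, and 0.753 ± 0.328 CPM in peroxide cells and 0 CPM in their vehicle. H19 and Igf2 passed the filter only through treated libraries, so their calls, which are among the 3 that rose, carry no information beyond these levels. Kcnq1ot1, the antisense RNA known to silence this cluster on the paternal allele, fell by 0.80 after doxorubicin (limma adjusted p = 9.79e-04), and Nap1l4 and Tssc4 fell by 0.36 and by 0.42 after peroxide. Cdkn1c did not exceed 1.26 CPM in any library, against up to 20.7 CPM for Slc22a18 next to it.

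Among the INK4 genes, Cdkn2c (4:109660876-109667189, minus strand) was the member whose changes had opposite signs. It had 22.5, 15.7 and 18.3 CPM in doxorubicin libraries, against 29.5, 30.3 and 28.4 CPM in their vehicle libraries. It had 16.2, 17.6 and 19.5 CPM in peroxide libraries, against 9.49, 9.62 and 10.7 CPM in their vehicle libraries. Neither pair of groups overlapped, and the levels of the 2 treated groups did overlap. Cdkn2c fell by 0.63 ± 0.12 on the log2 scale after doxorubicin (limma adjusted p = 0.00144) and rose by 0.78 ± 0.12 after peroxide (adjusted p = 3.08e-04). The effects differed by -1.41 (95% interval -1.79 to -1.03, adjusted p = 3.22e-04). The vehicle groups differed more than either treated group from its vehicle, since the day 7 vehicle averaged 29.4 ± 0.954 CPM and the day 6 vehicle 9.94 ± 0.657 CPM (SD, n = 3 each). That difference was 1.47 ± 0.12 on the log2 scale, or 2.78-fold, with an adjusted p of 1.57e-05. Cdkn2c was the sole inhibitor called between the vehicle groups, where 15.1% of all tested genes were called higher and 12.9% lower (28% in all). Without overlap, Cdkn1b and Cdkn2c were higher in the day 7 vehicle (25.9% of all tested genes were) and Cdkn2d and Cdkn3 lower (26.3%), within 52.2% of genes without overlap. The vehicle groups differed in day of lysis and in experiment, which cannot be told apart.

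Cdkn2d (9:21288410-21291407, minus strand), encoding p19INK4d, was where libraries of a group differed most. It had 33.0, 35.5 and 32.8 CPM in doxorubicin libraries, against 52.3, 54.9 and 26.8 CPM in their vehicle libraries. The third vehicle library lay under all 3 doxorubicin libraries, and the difference of -0.33 ± 0.47 on the log2 scale did not pass (limma adjusted p = 0.586). In peroxide libraries it had 34.0, 7.07 and 33.6 CPM, against 68.5, 71.2 and 65.2 CPM in their vehicle libraries. These groups did not overlap, and Cdkn2d fell by 1.69 ± 0.47 (adjusted p = 0.011), or by 0.99 without the second peroxide library (adjusted p = 0.00559). Leaving out that library, the third day 7 vehicle library and the first doxorubicin library together gave a doxorubicin difference of -0.64 (adjusted p = 1.02e-04). The effects differed by 1.37 (95% interval -0.10 to 2.83, adjusted p = 0.131), or by 0.36 without those 3 libraries (adjusted p = 0.0277). Those 3 were picked after their values were seen, so the adjusted p-values without them may be too small.

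Cdkn2a (4:89274471-89294653, minus strand) and Cdkn2b (4:89306299-89311039, minus strand) lie side by side, 11.6 kb apart. Cdkn2a had 0.0466 CPM, the value of a single read, in the first doxorubicin library and 0 in the other 11. Cdkn2b was at 0 in all 12. A count of 0 allows up to 3 reads, or 0.0798 to 0.1734 CPM per library and 0.0104 CPM over the summed depth of 287.9 M (1e+06) reads, from counting error alone. Neither gene was therefore detectable above that limit in any group. Mtap, a purine salvage enzyme and the nearest gene 93.4 kb from Cdkn2a, averaged 70.5 ± 13.3 CPM in doxorubicin cells and 56.5 ± 7.41 CPM in their vehicle (SD, n = 3 each). It averaged 56.1 ± 8.75 CPM in peroxide cells and 114 ± 24.0 CPM in their vehicle, a log2 change of -1.0 (limma adjusted p = 8.26e-04). Reads were thus found next to the undetected pair. On the other side, Dmrta1, 368.4 kb beyond Cdkn2b, had a value above 0 in 1 library, as did Zfp352 beyond it and the interferon gene Ifne beyond Mtap. Whether the genome of the line carries both inhibitor genes was not tested.

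Cdkn3 (14:46760541-46771669, plus strand) fell in both experiments with the smallest standard error of the 6 tested inhibitors. It had 12.8, 10.9 and 11.9 CPM in doxorubicin libraries, against 47.1, 50.4 and 49.3 CPM in their vehicle libraries. It had 17.9, 19.2 and 16.5 CPM in peroxide libraries, against 57.7, 58.0 and 55.9 CPM in their vehicle libraries. The groups were far apart, and Cdkn3 fell by 1.96 ± 0.08 on the log2 scale after doxorubicin (limma adjusted p = 1.2e-08) and by 1.63 ± 0.08 after peroxide (adjusted p = 5.9e-08). The effects differed by -0.33 (95% interval -0.59 to -0.07, adjusted p = 0.0487), close to the threshold, and the call was lost without any 1 of 10 libraries (adjusted p 0.063 to 0.0991). Most listed genes of dividing cells also fell. Of 20, 0 rose (22.1% of all tested genes did) and 16 fell (27.8% did) after doxorubicin, with a median log2 change of -1.39. After peroxide 0 rose (27.3% of all tested genes did) and 20 fell (23.4% did), with a median of -1.60. The summed level of the 20 listed genes was 801.7 to 813.2 CPM in doxorubicin libraries against 2011 to 2138 CPM in their vehicle. In peroxide libraries it was 1111 to 1176 CPM, against 3189 to 3395 CPM in their vehicle. Birc5, which encodes survivin of the chromosomal passenger complex, fell by 2.19 after doxorubicin and by 1.66 after peroxide. Nusap1, a spindle protein, fell by 1.93 after doxorubicin and by 0.55 after peroxide. Mki67, the proliferation antigen, averaged 18.4 ± 1.38 CPM in doxorubicin cells and 76.6 ± 5.05 CPM in their vehicle, and 34.1 ± 2.10 CPM in peroxide cells and 125 ± 6.96 CPM in their vehicle.

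**Figure D2:**
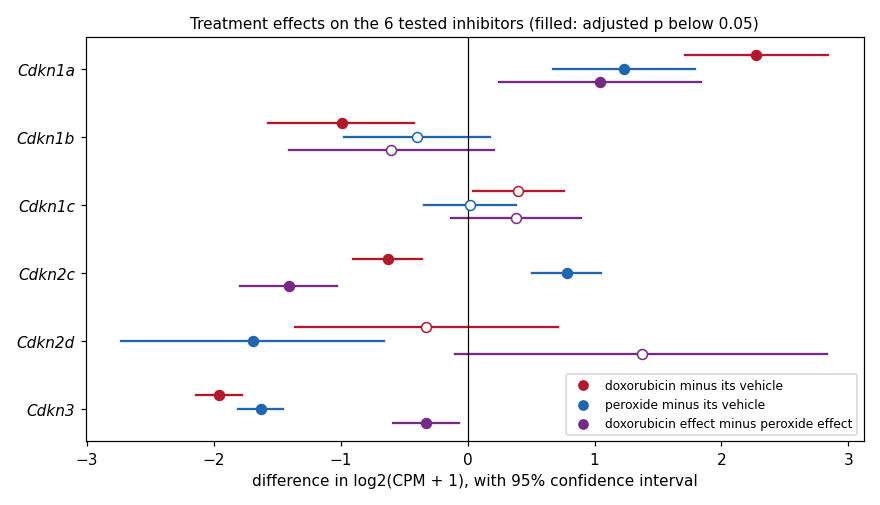
Log2 difference of the 6 tested inhibitors on the log2(CPM + 1) scale, with 95% intervals, for doxorubicin minus its vehicle, peroxide minus its vehicle, and the doxorubicin effect minus the peroxide effect. Cdkn1a lies above 0 and Cdkn3 under 0 for both treatments, Cdkn2c lies on opposite sides of 0, and Cdkn2d has the widest intervals.

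The difference between the treatment effects was called for 1 inhibitor upward (Cdkn1a, where 13.5% of all tested genes were called) and 2 downward (Cdkn2c and Cdkn3, where 20.1% were called). In all, 33.6% of tested genes were called in that comparison. Of all genes called there, 40.3% were higher, and 52% were higher under median-of-ratios scaling of the libraries. Upper quartile scaling moved the median difference over all genes to -0.139, beside -0.067 without rescaling. No inhibitor's direction changed under either scaling, but Cdkn3 lost its call for the difference under both (adjusted p = 0.15 with median-of-ratios and 0.0564 with upper quartile scaling).

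Per kb of the longest annotated transcript, Cdkn1a stood above every other inhibitor in all 4 groups. In doxorubicin cells Cdkn1a averaged 472 ± 14.5 CPM per kb, Cdkn2d 23.7 ± 1.07, Cdkn2c 7.61 ± 1.39, Cdkn1b 6.86 ± 0.438, Cdkn3 6.08 ± 0.488 and Cdkn1c 0.555 ± 0.155. The range of Cdkn2c overlapped those of Cdkn1b and Cdkn3 there. In the day 7 vehicle the order was Cdkn1a at 100.1 ± 28.5 CPM per kb, Cdkn2d at 31.4 ± 10.9, Cdkn3 at 25.1 ± 0.863, Cdkn1b at 13.9 ± 1.87, Cdkn2c at 11.9 ± 0.386 and Cdkn1c at 0.295 ± 0.135. The ranges of Cdkn2d and Cdkn3 overlapped, so Cdkn3 was among the leading inhibitor transcripts in the vehicle. After doxorubicin the range of Cdkn3 lay under those of Cdkn1a, Cdkn2d and Cdkn1b.

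In peroxide cells Cdkn1a averaged 291 ± 98.9 CPM per kb and Cdkn2d 17.5 ± 10.9, followed by Cdkn3 at 9.15 ± 0.704, Cdkn1b at 7.67 ± 3.77, Cdkn2c at 7.21 ± 0.67 and Cdkn1c at 0.471 ± 0.0868. From Cdkn2d to Cdkn2c, the ranges of neighbours in this order overlapped. In the day 6 vehicle Cdkn1a averaged 118 ± 5.53 CPM per kb, Cdkn2d 48.0 ± 2.1, Cdkn3 29.3 ± 0.567, Cdkn1b 9.44 ± 1.03, Cdkn2c 4.02 ± 0.266 and Cdkn1c 0.461 ± 0.125, with no overlap between neighbours.

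As a share of the summed level of the 8 genes per kb, Cdkn1a made up 91.3 ± 0.321% in doxorubicin cells and 54.2 ± 4.13% in their vehicle (SD, n = 3 each). It made up 87.3 ± 0.451% in peroxide cells and 56.4 ± 1.56% in their vehicle. The peroxide share was 86.9 to 87.8% in its 3 libraries although the summed level ran from 205 to 413 CPM per kb. With the union of exons as the length, the Cdkn1a share was 87.1% and 43.6% in doxorubicin cells and their vehicle, and 81.7% and 46.0% in peroxide cells and their vehicle. The share is of transcripts with these 8 names, not of inhibitor protein.

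**Figure D3:**
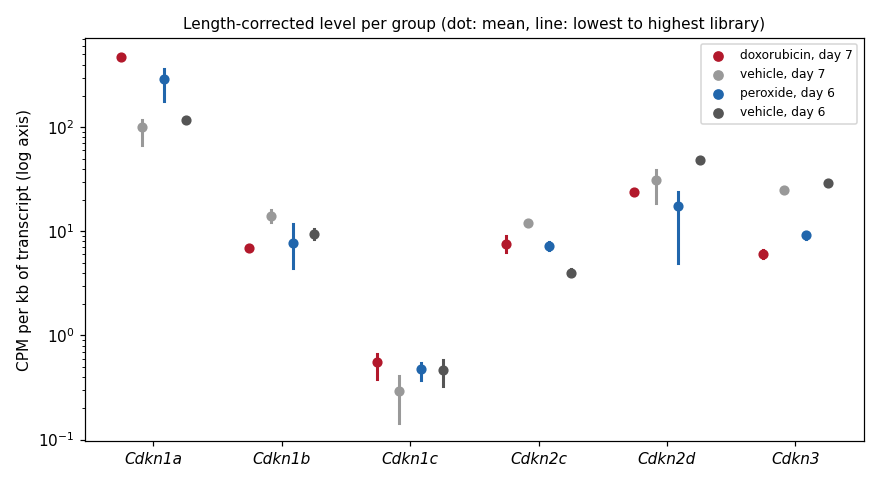
Level of each inhibitor in CPM per kb of its longest transcript on a log axis, in the order doxorubicin, its vehicle, peroxide, its vehicle; dots are group means and lines run from the lowest to the highest of 3 libraries. Cdkn1a is the highest in every group, and Cdkn3 stands next after Cdkn2d in both vehicles and under Cdkn1b in doxorubicin cells.

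Libraries of the same group differed in several inhibitors at once. The second peroxide library deviated from its group mean by -1.41 on the log2 scale for Cdkn2d, -0.64 for Cdkn1a and -0.65 for Cdkn1b, but by 0.10 for Cdkn3 and -0.01 for Cdkn2c. The third day 7 vehicle library deviated by -0.65 for Cdkn2d and -0.53 for Cdkn1a. Over the 12 libraries the deviations of Cdkn1a and Cdkn2d from their group means had r = 0.96, those of Cdkn1b and Cdkn2d 0.77 and those of Cdkn1a and Cdkn1b 0.72, while those of Cdkn1a and Cdkn3 had r = -0.52. These points share library and depth and describe 3 libraries a group. These libraries also stood apart over all genes, where the second principal component (23.7% of variance) placed the second peroxide library at 48.2 and the other two at 16.8 and 14.2. It placed the third day 7 vehicle library at 37.8 and the other two at 6.7 and 5.2. The first doxorubicin library was at 0 and the other two at -39.9 and -29.5. The day 6 vehicle libraries were at -33.6, -18.9 and -7.1. The fit without 3 libraries that stand apart was chosen after these values were seen, and it kept every day 6 vehicle library. Such a choice narrows the spread within groups, so adjusted p-values of that fit may be too small. Depth was 17.3 to 37.6 M reads per library. The part of these library differences in the results was not tested beyond the values without them.

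**Figure D4:**
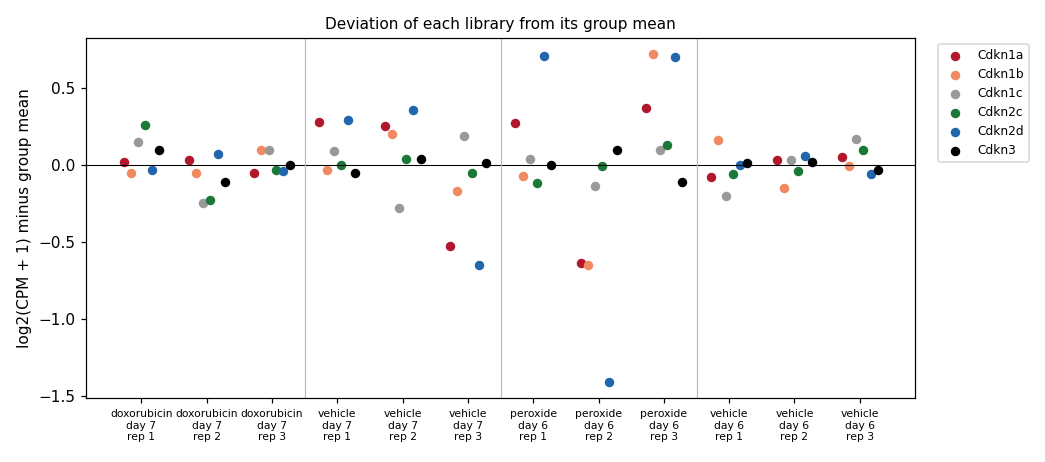
Deviation of each library from its group mean for the tested inhibitors, in log2(CPM + 1). The second peroxide library and the third day 7 vehicle library lie low for Cdkn1a and Cdkn2d together, and Cdkn3 deviates little in any library.

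Genes with the pattern most like each inhibitor were ranked by Pearson's r of log2(CPM + 1) over the 12 libraries, among 9278 genes with a mean of at least 5 CPM. The points share the 4 group means and their libraries, so r describes the pattern alone. For Cdkn1a the leading genes were Itgbl1 (r = 0.987), Gpx3 (0.983) and Pmaip1 (0.982). For Cdkn1b they were Smim10l1 (0.961), Alkbh5 (0.959) and Adam10 (0.959), and for Cdkn1c they were Gfer (0.871), Pomp (0.810) and Slc1a3 (0.779), a looser likeness at its low level. Cdkn2c was followed most closely by Ppm1h (0.969), Psenen (0.965) and Mfsd11 (0.959), all of which fell after doxorubicin (by 0.38, by 0.29 and by 0.22 on the log2 scale) and rose after peroxide (by 0.54, 0.22 and 0.22). These were also higher in the day 7 vehicle than in the day 6 vehicle, by 0.96, 0.52 and 0.53, as Cdkn2c was. The shared directions follow from how the genes were picked and are no separate evidence. With group means removed their r with Cdkn2c was 0.303, 0.614 and 0.408. Cdkn2d was closest to Mrpl9 (0.990), Trub1 (0.989) and Nt5dc1 (0.987), whose r was 0.988, 0.987 and 0.982 with group means removed, where other genes ranked first. Cdkn3 was closest to Ddx46 (0.994), Nme6 (0.994) and Hmgb2 (0.993), whose r was 0.839, 0.491 and -0.328 with group means removed.

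The kinases and cyclins that the inhibitors act on moved in both directions. Of 12 tested, 5 rose and 6 fell after doxorubicin, and 2 rose and 9 fell after peroxide. Over all tested genes 22.1% rose and 27.8% fell after doxorubicin, and 27.3% rose and 23.4% fell after peroxide, with medians of -0.03 and -0.013, and the counts of the lists that follow stand beside these same shares. Ccnd2, a D-type cyclin of G1, rose by 1.6 on the log2 scale after doxorubicin (limma adjusted p = 1.91e-07) and by 0.56 after peroxide (adjusted p = 5.65e-04). Ccnd1 rose by 2.37 after doxorubicin (adjusted p = 1.29e-05), with a value of -0.38 after peroxide that did not pass (adjusted p = 0.21). Its vehicle groups also differed, at 23.0 CPM on day 7 and 75.2 CPM on day 6 (log2 difference -1.67, limma adjusted p = 5.47e-04). Ccnd3 rose by 1.45 after doxorubicin (adjusted p = 1.71e-05) and by 0.81 after peroxide (adjusted p = 0.00117). Ccna2, the S and G2 cyclin, fell by 1.90 after doxorubicin and by 1.62 after peroxide, and Ccnb1, the mitotic cyclin, fell by 1.82 and by 1.55. Of the INK4 targets, named here after their values were seen, Cdk4 fell by 0.47 after doxorubicin and by 0.66 after peroxide, and Cdk6 rose by 0.35 after doxorubicin and fell by 0.37 after peroxide. Cdk6 averaged 109.3 CPM in doxorubicin cells and 106.8 CPM in peroxide cells, against 85.8 CPM and 138.7 CPM in their vehicles. These vehicle groups differed by -0.68 on the log2 scale (limma adjusted p = 5.95e-04). The median log2 change of the 12 was -0.37 after doxorubicin and -0.87 after peroxide.

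The pocket proteins, which the kinases phosphorylate, were tested in a list with members of the E2F family and their partners. Of 12 tested (13 listed), 2 rose and 4 fell after doxorubicin, and 3 rose and 4 fell after peroxide. E2f1, an activating factor, rose by 0.71 after doxorubicin and by 0.72 after peroxide, E2f6 rose by 0.71 after doxorubicin, and Tfdp1, the E2F partner, fell by 0.47 and by 0.57, while E2f8, a repressor expressed in cycling cells, fell by 1.63 and by 1.53. Rbl2, the pocket protein of resting cells, rose by 0.73 after peroxide and had 0.01 after doxorubicin (limma adjusted p = 0.921). The medians of -0.04 and -0.17 lay near those of all genes.

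Ligase subunits and cofactors listed for the turnover of CIP/KIP proteins were tested together, and turnover of the proteins itself was not measured. Of 12 tested, 0 rose and 8 fell after doxorubicin (27.8% of all tested genes fell), and 1 rose and 7 fell after peroxide (23.4% fell), with a median log2 change of -0.65 for both. Cks2 fell by 1.42 after doxorubicin and by 1.15 after peroxide. Cks1b, the cofactor of the ligase that degrades p27, fell by 0.85 after doxorubicin and by 0.80 after peroxide. Dtl, a substrate receptor for p21 degradation, fell by 0.91 after doxorubicin and by 1.32 after peroxide. The exception was Skp1a, a core ligase subunit, which rose by 0.29 after peroxide (limma adjusted p = 0.00573). Most listed genes of dividing cells fell as well, and whether the falls in this list are separate from theirs was not tested.

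Of 16 tested transcriptional activators of inhibitor genes (18 listed), 4 rose and 5 fell after doxorubicin, and 5 rose and 5 fell after peroxide. These counts are near the shares of all tested genes that rose (22.1% and 27.3%) and fell (27.8% and 23.4%). Foxo3, known to activate Cdkn1b, rose by 0.37 after doxorubicin and by 0.84 after peroxide. Ets2, known to activate Cdkn2a, fell by 1.05 after doxorubicin and by 0.36 after peroxide. Cebpa fell by 0.44 after doxorubicin and by 1.08 after peroxide. Klf4, known to act on Cdkn1a, fell by 0.56 after doxorubicin and rose by 0.41 after peroxide. It averaged 61.8 CPM in doxorubicin cells and 58.3 CPM in peroxide cells, against 91.5 CPM and 43.7 CPM in their vehicles. These vehicle groups differed by 1.05 on the log2 scale (limma adjusted p = 1.83e-05). Trp53, which encodes p53, fell by 0.28 after doxorubicin and by 0.42 after peroxide at the RNA level (limma adjusted p = 0.0425 and 0.00603). The medians of the list were 0.10 after doxorubicin and -0.29 after peroxide. Of 13 tested repressors (14 listed), 2 rose and 4 fell after doxorubicin, and 2 rose and 6 fell after peroxide. Mdm2, the p53 ligase and itself a p53 target, rose by 3.04 after doxorubicin (limma adjusted p = 1.3e-09) and by 1.61 after peroxide (adjusted p = 1.24e-07). Id1, known to repress Cdkn2a, rose by 1.96 after doxorubicin (adjusted p = 0.0496) and fell by 2.81 after peroxide (adjusted p = 0.00928). Libraries of a group differed widely for Id1. Doxorubicin libraries had 2.0 to 24.1 CPM, overlapping their vehicle at 0.872 to 2.86 CPM. Peroxide libraries had 0.803 to 1.45 CPM, against 6.88 to 37.7 CPM in their vehicle. The Polycomb genes Ezh2 and Suz12, known to silence the Cdkn2a locus, were lower after both treatments. Ezh2 fell by 1.27 after doxorubicin and fell by 1.49 after peroxide, and Suz12 fell by 1.01 and by 0.98. Among the other listed Polycomb genes, Cbx2 fell after both treatments, and Bmi1 fell after doxorubicin but did not pass after peroxide. Eed, Rnf2, Cbx7 and Cbx8 passed after neither. Cdkn2a stayed at the detection limit. The medians of the list were 0.08 after doxorubicin and -0.39 after peroxide.

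Markers of the labelled cell type were present, led by Col1a2 and Col1a1 with means of 3436 and 2839 CPM. Of 12 fibroblast markers, 10 to 12 averaged at least 1 CPM in each group, with sums of 13873 to 18360 CPM in doxorubicin libraries against 9087 to 9929 CPM in their vehicle, and 12672 to 14232 CPM in peroxide libraries against 8396 to 9979 CPM in their vehicle. Among 12 epithelial markers only Krt19 reached a mean of 1 CPM in a group, and the sum was 69.0 to 80.8 CPM in doxorubicin libraries against 122 to 184 CPM in their vehicle, and 18.3 to 58.5 CPM in peroxide libraries against 168 to 181 CPM in their vehicle. Of 12 leukocyte markers 3 reached 1 CPM in each group, led by Csf1r and Lyz2, with sums of 27.6 to 33.0 CPM after doxorubicin against 11.1 to 17.8 CPM in the vehicle, and 23.7 to 26.7 CPM after peroxide against 16.4 to 17.4 CPM in the vehicle. Of 3 tested leukocyte markers, 3 rose after doxorubicin, whereas 2 rose and 1 (Csf1r) fell after peroxide. Of 8 endothelial markers only Tek reached 1 CPM, with sums of 34.6 to 45.2 CPM after doxorubicin against 12.5 to 16.4 CPM in the vehicle, and 22.9 to 28.2 CPM after peroxide against 5.67 to 9.54 CPM in the vehicle. Adipocyte markers were led by Lpl, with sums of 1420 to 1506 CPM after doxorubicin against 2291 to 2489 CPM in the vehicle, and 2120 to 2222 CPM after peroxide against 1069 to 1254 CPM in the vehicle. Lpl alone averaged 2097 CPM in peroxide cells and 998 CPM in their vehicle. Of 4 tested adipocyte markers, 2 rose after peroxide and 2 fell (Pparg by 1.55 and Fabp4 by 0.86 on the log2 scale). After doxorubicin 1 of the 4 rose and 3 fell. Mural and glial markers summed to 41.0 to 46.1 CPM after doxorubicin against 28.0 to 35.1 CPM in the vehicle, and 46.2 to 55.3 CPM after peroxide against 35.5 to 36.9 CPM in the vehicle. Of 4 tested mural and glial markers, 2 rose and 0 fell after doxorubicin, and 1 rose and 1 fell after peroxide. Over all tested genes 22.1% rose and 27.8% fell after doxorubicin, and 27.3% rose and 23.4% fell after peroxide. The part of these shifts in the inhibitor results was not tested.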

How the data were processed

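RNA sequencing gave 12 libraries in 4 groups of 3. Per the submitters' processing notes, bcl2fastq, DRAGEN and the mm10 build were used, without versions. How reads were counted, whether by strand, and with which annotation is not given in the sources used here. Values were deposited by the authors as CPM and sum to 1e+06 in every library. Of 55774 lines, 287 repeated an identifier with identical values and were left out, and 0 value columns were unmapped. The CPM of a single read gave the depth, but only 74.6 to 79.8% of low values (up to 20 reads) were whole at a tolerance of 0.001 read. Whole reads were thus not recovered, and the main fit used no count test. The fit with limma voom on estimated reads was run as an alternative only.

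The 13280 genes past the filter entered 1 limma model (version 3.58.1, R 4.3.3) of log2(CPM + 1) with a mean-variance trend and 4 group means. This scale understates changes of low genes. Tests were two-sided, and Benjamini-Hochberg adjustment ran over all tested genes of a comparison, at a threshold of 0.05. Each treatment was compared with its vehicle, both effects with each other, and the day 7 with the day 6 vehicle. The code was tested on simulated data. Python 3.11.15 (numpy 2.4.6, pandas 2.3.3, matplotlib 3.10.9) made tables and figures.

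Positions are from GENCODE M21 on GRCm38/mm10 and promoter windows from RefSeq (GRCm38.p6). The genes named were the 8 inhibitors, the 3 genes with the most similar pattern to each, up to 2 genes that rose and 2 that fell with the smallest adjusted p per list and treatment, the 2 nearest coding genes on each side of Cdkn2a and Cdkn2b, and the leading markers; a gene that this rule names is not reported here. Other genes, Mki67, Igf2, Cdk4, Cdk6, Ccnd1 after peroxide, and second values of genes named for 1 treatment among them, were added after their values were seen. The inhibitors, the lists and the comparisons were chosen with earlier results of these data known. Alternatives covered the pseudocount, the filter, scaling, the variance model, a replicate block, the threshold, transcript length and leaving out libraries. Floors cover counting error only.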

Additional observations from a re-analysis of the deposited data

Results flagged for a closer look

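For 3 inhibitors the doxorubicin effect and the peroxide effect differed in the test of the difference itself. Cdkn2c had a difference of -1.41 on the log2 scale (limma adjusted p = 3.22e-04), with all 3 doxorubicin libraries under their vehicle libraries and all 3 peroxide libraries over theirs. It was called under every alternative run, at -1.57 to -1.29, and these alternatives used the same vehicle groups. Cdkn2c averaged 18.8 CPM in doxorubicin cells and 17.8 CPM in peroxide cells. Its day 7 and day 6 vehicles differed by 1.47 on the log2 scale (limma adjusted p = 1.57e-05). Cdkn1a had a difference of 1.04 (adjusted p = 0.0461) and Cdkn3 a difference of -0.33 (adjusted p = 0.0487). Both of these lay just inside the threshold of 0.05. Of 24 alternatives, Cdkn1a was called under 13 and Cdkn3 under 7. No explanation of these differences was tested.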

How the results depend on the processing

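Of 476 values of single inhibitors under the alternatives run, 427 kept their direction and side of the threshold, 31 lost a call, 15 gained one and 3 changed sign. The changes of sign were all Cdkn1c after peroxide, which ran from -0.081 to 0.103 when single libraries were left out (-0.003 without the first peroxide library, -0.03 without the last, -0.081 without the first of its vehicle). For the difference between treatment effects, 2 inhibitors were called lower; this count was 1 with a pseudocount of 2, without a filter on low values, with median-of-ratios or upper quartile scaling, without the variance trend, with the replicate block and at an adjusted p threshold of 0.01, and 3 with array weights (Cdkn1b in addition). The inhibitor called higher there was 1, against 0 without the filter, without the trend, with the block and at 0.01, and 2 without the 3 libraries that stand apart (peroxide replicate 2, day 7 vehicle replicate 3 and doxorubicin replicate 1). After doxorubicin 2 inhibitors were called higher with array weights and with the replicate block (Cdkn1c in addition). After peroxide 1 was called lower at 0.01. Between the vehicle groups 2 were called higher and 1 lower with array weights and without the 3 libraries, and 1 lower with limma voom on estimated reads. Over all genes, the difference between effects had 1796 calls higher and 2665 lower, with 2847 higher under array weights, and 623 higher and 1318 lower at 0.01. Between the vehicle groups 2001 were higher and 1718 lower, with 2694 lower under array weights, and 1124 higher and 918 lower at 0.01. Averaged over the 4 groups, Cdkn1a fell to 143.6 CPM per kb with the exon union as length, against 245.4 with the longest transcript, and Cdkn3 to 14.3, against 17.4. Leaving out each library in turn gave 1 to 2 inhibitors higher after doxorubicin, 2 to 3 lower after peroxide, and for the difference 0 to 1 higher and 1 to 2 lower, with 1131 to 2262 genes higher over all. Replicate numbers were not treated as pairs in the main fit. Deviations of libraries with the same number correlated at -0.311, 0.194 and -0.277 between doxorubicin and its vehicle. Between peroxide and its vehicle they correlated at 0.143, 0.0304 and -0.237. With 3 libraries a group, these values cannot show whether the numbers mark pairs. The cause of the changes under the alternatives was not tested. Depth limits Cdkn1c, Cdkn2a and Cdkn2b, and 3 libraries a group limit every interval.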

Other observations

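Lockd, a long noncoding RNA gene 3.6 kb downstream of Cdkn1b (6:134929092-134956798, plus strand), was looked up after its values were seen. It averaged 7.97 ± 1.14 CPM in doxorubicin cells and 37.3 ± 2.89 CPM in their vehicle, and 13.2 ± 1.68 CPM in peroxide cells and 38.8 ± 4.0 CPM in their vehicle (SD, n = 3 each). It fell by 2.10 ± 0.13 on the log2 scale after doxorubicin (limma adjusted p = 1.83e-07) and by 1.49 ± 0.13 after peroxide (adjusted p = 2.57e-06). Cdkn1b beside it fell by 0.99 after doxorubicin and did not pass after peroxide.

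Of the 18 genes with a p53 response element in the promoter window, 5 passed the expression filter. After doxorubicin 3 rose (Cdkn1a, Gm15987 and Gtse1) and 0 fell, and after peroxide 3 rose (Cdkn1a, Gm15987 and Rps27l) and 1 fell. Over all tested genes 22.1% rose after doxorubicin and 27.3% after peroxide, and 5 genes are too few to set beside these shares. The genes were not chosen for their values.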
